A study of Sus scrofa with 28 samples.

Results

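Of the 84192 accessible-chromatin peaks listed across 28 pig liver libraries, 1393 (1.65%) lay at the ends of noncoding RNA genes. They were chosen by position: the centre of the peak was within 1000 bp of an end of a RefSeq gene with a noncoding RNA biotype on build Sscrofa11.1, and more than 1000 bp from every end of a protein-coding gene. Peaks of different libraries that overlapped by at least 1 bp were joined, which gave 509 regions that hold such a peak. The gene table lists 5600 genes of biotype lncRNA and 0 of biotype ncRNA, so every gene meant here by "noncoding" is a model of a long noncoding RNA, and 5399 of them lie on the 19 chromosomes that carry peaks. The table gives no strand, and the start of a gene could therefore not be told from its other end.

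Long noncoding RNAs are transcripts without a long open reading frame, usually made by RNA polymerase II from promoters that are open like those of protein-coding genes. Many are transcribed divergently from the promoter of a neighbouring coding gene or lie inside its introns, some act on chromatin or on the coding gene beside them, and most have no known function. Their annotation in the pig rests largely on transcript evidence and computed models, and a LOC identifier marks a model that carries no approved name.

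ATAC-seq, in which a transposase cuts open chromatin and inserts sequencing adapters, was used on the liver of pigs of the Polish native breed Zlotnicka White, all female and 180 days old. The animals had shared feeding and housing and were slaughtered at about 100 kg. Liver cells were released by a brief enzyme digestion, strained and slowly frozen before library preparation, and the protocol mentions no sorting of cell types. The 28 libraries form 4 groups of 7: high fat content with the label number 200, low fat content with 200, high fat content with 600 and low fat content with 600. What the number stands for is not stated in the labels, and the fat group is recorded under a tag named shear force, so the tissue whose fat was measured is not given. Within each group the labels number the libraries 1 to 7. Each of 14 title numbers occurs once among the 200 and once among the 600 libraries, with the same fat group and replicate number both times, so a 200 and a 600 library may share an animal. No animal is named in the labels, and p-values measure the spread between libraries. The 2 sets were compared as separate libraries, except in the difference between fat differences and where same-numbered libraries are named. The library names in the deposited table carry one sequencing lane tag in the 200 set and another in the 600 set, so label number and lane cannot be told apart.

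The libraries differed widely in size, from 39 to 17652 listed peaks, and sequencing depth is unknown. No 2 of the lists were identical. Protein-coding ends held 40838 peaks (48.5%), within the same 1000 bp. As a check of the tissue, 11 of 15 hepatocyte markers had a peak at a gene end in at least 1 library, led by HPX, the heme-binding plasma protein hemopexin, in 11 libraries and the liver transcription factor FOXA1 in 9, while APOB, HNF4A and NR1H4 were among those with none. The same count was 2 of 9 for Kupffer cells and macrophages (CD14 in 6 libraries), 3 of 8 for lymphocytes with 1 library each, 1 of 5 for erythroid cells, 0 of 11 for endothelial and stellate cells and 0 of 5 for cholangiocytes. Beside these counts, 52.9% of all coding genes with a symbol had an end peak in at least 1 library, and no enrichment was tested. In bulk tissue, fewer cells of a type and less accessible chromatin per cell cannot be told apart.

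The noncoding-end peaks were spread unevenly over the libraries. A total of 23 libraries listed at least 1 and 5 listed none. The high fat 200 libraries, replicates 1 to 7, listed 289, 3, 73, 14, 16, 2 and 226 of them, and the low fat 200 libraries 154, 0, 6, 41, 4, 68 and 121. The high fat 600 libraries listed 74, 0, 16, 1, 0, 1 and 132, and the low fat 600 libraries 58, 0, 1, 10, 0, 23 and 60. Counts near 0 and counts above 50 occurred in every group, so the groups overlapped throughout. The 3 libraries with the most held 669 of the peaks (48.0%), which were the high fat 200 replicates 1 and 7 and the low fat 200 replicate 1.

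**Figure D1:**
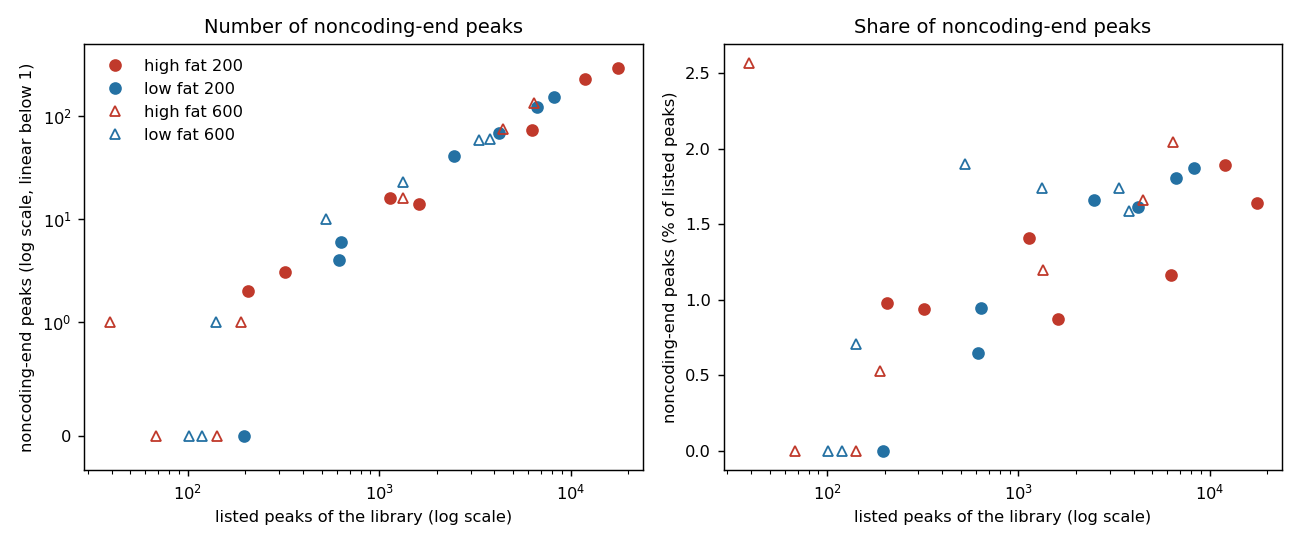
Number (left) and share (right) of noncoding-end peaks in each of the 28 libraries against the library's listed peaks (log axis; the left y axis is logarithmic above 1 and linear below). Circles are 200 and triangles 600 libraries, red high and blue low fat; the number rises from 0 to 289 with the size of the list, and among the 200 libraries the share rises too.

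As a share of all listed peaks, noncoding-end peaks made up 1.27% ± 0.390 (SD, n = 7) of a high fat 200 library, 1.22% ± 0.709 of a low fat 200, 1.14% ± 1.01 of a high fat 600 and 1.10% ± 0.843 of a low fat 600 library. The share followed the size of the list in the 200 libraries, with Pearson r = 0.820 against log10 of the listed peaks (n = 14, permutation p = 0.00031, adjusted over 2 relations 0.00062) and Spearman rho = 0.83 (permutation p = 0.00042). Without the 2 libraries farthest from the median list size r was 0.793. For the 600 libraries r was 0.531 (n = 14, permutation p = 0.0522) and rho 0.449 (permutation p = 0.107), and r without the 2 farthest libraries was 0.429. Among libraries with at least 1000 peaks the share ran from 0.870% to 1.89% in 9 libraries of the 200 set and from 1.20% to 2.05% in 6 of the 600 set. In smaller lists it ran from 0% to 0.976% and from 0% to 2.56%, where at most 10 noncoding-end peaks stood behind a value.

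The distance of a peak to the gene end it was assigned to was larger at noncoding than at coding ends. The median was 265 bp over the 1393 peaks and 134 bp over the 40838 coding-end peaks. Within 100 bp of the end lay 24.8% of noncoding-end peaks against 40.3% of coding-end peaks, and within 250 bp 48.8% against 72.1%. More than 750 bp away lay 14.6% against 4.17%. Both label numbers gave the same order, with medians of 277 bp and 127 bp in the 200 and of 245.5 bp and 150 bp in the 600 libraries. Regions with noncoding-end peaks in at least 3 libraries were centred at a median of 230 bp from the end and 53.9% of the 165 lay within 250 bp, whereas the 344 regions of 1 or 2 libraries had a median of 426 bp and 34.3% within 250 bp. A library counted here only if its peak met the rule, so regions near the 1000 bp limit could lose libraries by the rule alone. How much of the split by recurrence comes from this was not tested. Noncoding-end peaks fell inside the gene in 48.7% of cases and coding-end peaks in 57.9%. Peaks of 1 region share their sequence and are not independent, so these are descriptions without a test. The rule itself limits these distances to 1000 bp and acts unequally on the 2 classes. Of 4882 peaks at noncoding ends it left out 3489 that were also near a coding end, while coding-end peaks had no such exclusion. What this adds to the contrast was not tested. At the limit of the rule, 83 noncoding-end peaks lay in the last 100 bp inside the 1000 bp window, with a median strength (deposited −log10 p) of 4.32, and 85 other peaks lay in the first 100 bp outside it, with 4.15.

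**Figure D2:**
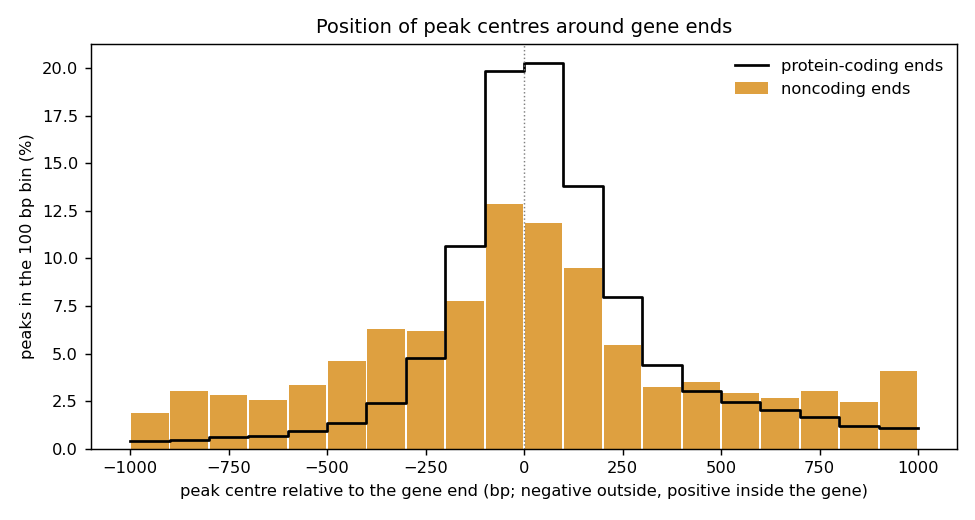
Percent of peaks in 100 bp bins of the signed distance from peak centre to gene end (bp; negative outside, positive inside the gene), for the 1393 noncoding-end peaks (orange bars) and 40838 coding-end peaks (black line), all libraries pooled. Both rise towards the end, and the noncoding-end peaks have the lower summit and the larger share beyond 250 bp.

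Most regions were seen in few libraries. Counting any peak in the region, 262 of the 509 noncoding-end regions (51.5%) were listed in 1 library, 190 (37.3%) in at least 3, 50 (9.82%) in at least 9 and 10 in at least 14, with a maximum of 20. Coding-end regions recurred more often, with 30.2% of 8453 in 1 library and 58.1% in at least 3, and regions elsewhere less often, with 72.3% of 20430 in 1 library and 17.1% in at least 3. A region was classed as noncoding-end if any of its peaks met the rule, and as elsewhere only if none lay at either kind of end. Regions of more libraries thus had more chances to leave the class elsewhere. What this adds to the differences was not tested. Counting peaks that themselves meet the rule, 288 regions rested on 1 library, of which 107 came from the high fat 200 replicate 1, 57 from replicate 7 and 48 from replicate 3 of that group and 21 from the low fat 200 replicate 1. On the same count 35 regions were found in 9 libraries or more. The 2 counts differ because the centre of a peak can move across a limit of the rule, and 30 regions also held a coding-end peak of another library.

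**Figure D3:**
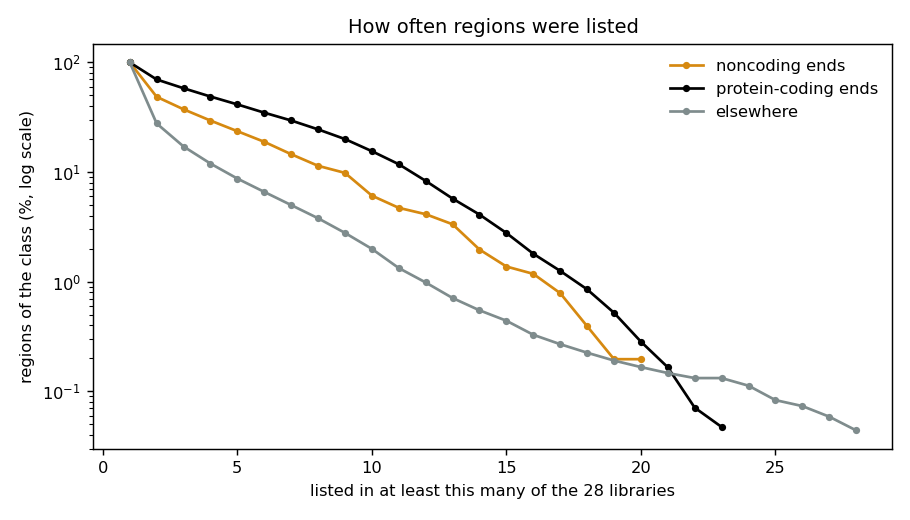
Percent of regions (log axis) listed in at least the number of libraries on the x axis, for regions at noncoding ends (orange), protein-coding ends (black) and elsewhere (grey). The noncoding-end curve runs between the other two at 3 and at 9 libraries (37.3% and 9.82%) and ends at 20 libraries.

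Distance to coding ends has a floor of 1000 bp by the rule, and the following values describe the regions it kept. The nearest coding gene end was a median of 14483 bp away, it was more than 10000 bp away for 288 regions and more than 100000 bp away for 59, and for 74 regions it was 1000 to 2000 bp away. A protein-coding gene body contained 170 regions (33.4%) and 339 lay outside any. Along this axis, noncoding-end peaks in at least 3 libraries were found for 37.8% of regions with a coding end at 1000 to 2000 bp, 32.0% at 2000 to 10000 bp, 32.8% at 10000 to 100000 bp and 25.4% beyond. On the X chromosome lay 19 regions. Other small RNA genes were rare neighbours, since 5 regions were near a tRNA end and 1 near a miRNA end.

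Few noncoding genes were marked. A peak met the rule at an end of 491 of the 5399 (9.09%), in at least 3 libraries for 170 (3.15%) and in at least 9 for 36. With peaks shared with a coding end included, the count was 1059 (19.6%), because 3489 of the 4882 peaks at noncoding ends also lay in the window of a coding end. Of 19484 protein-coding genes, 9164 (47.0%) had an end peak, with 52.9% among those with a symbol and 16.7% among those with a LOC identifier. Peaks marked mostly 1 end of a gene. With each peak assigned to its nearest gene, 477 genes remained, of which 461 had peaks at 1 end and 16 at both. Among genes longer than 2000 bp the share with both ends was 2.79% of 430 noncoding and 3.96% of 8278 coding genes. The rule left out peaks at noncoding ends that were also near a coding end, while coding ends had no such exclusion. What this adds to the lower noncoding share was not tested. Genes with a noncoding-end peak had a median length of 10111 bp and all noncoding genes 12659 bp.

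The most recurrent site was at LOC106506288 (chr15:90309607-90310190, Sscrofa11.1), a noncoding gene 159543 bp from the nearest coding end, that of the zinc finger gene ZNF804A. Noncoding-end peaks lay there in 18 libraries: 6 of 7 high fat 200, 6 of 7 low fat 200, 2 of 7 high fat 600 and 4 of 7 low fat 600. The strength of a peak is given here as the deposited −log10 p at its summit, which describes one library's list and carries that library's unknown depth. In the high fat 200 libraries that listed LOC106506288 it ran from 4.33 over a median of 7.56 to 10.5, and in the low fat 200 libraries from 6.12 over 8.65 to 9.52. The 2 high fat 600 values were 3.54 and 4.93, and the 4 low fat 600 values ran from 3.86 to 4.51. Fat groups overlapped within each label number. Even short lists held the site: the high fat 200 replicate 6, with 205 peaks, listed it as 1 of its 2 noncoding-end peaks. Its rank by strength within a library had a median of 49 and a range from 14 to 4873.

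The peaks at LOC106506288 were among the narrowest of their label number. They were 224 to 343 bp wide in the 12 libraries of the 200 set and 568 to 584 bp in the 6 of the 600 set, and the ends of these ranges were the weakest and the strongest peak of the set. In the 200 set 224 bp went with a −log10 p of 4.33 and 343 bp with 10.5, and in the 600 set 568 bp went with 3.54 and 584 bp with 4.93. Over all noncoding-end peaks the least width was 224 bp in the 200 and 568 bp in the 600 libraries, and the medians were 506 bp and 1044 bp. At LOC102160517, by contrast, the 200 peaks ran from 420 to 1821 bp and the 600 peaks from 905 to 2069 bp.

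LOC102160517 (chr8:118202035-118204226) came next, with peaks in 17 libraries, 15127 bp from UBE2D3, which encodes a ubiquitin-conjugating enzyme. It was listed by 5 high fat 200, 4 low fat 200, 3 high fat 600 and 5 low fat 600 libraries. Strength ran from 4.12 to 9.62 in the high fat 200, 5.27 to 8.52 in the low fat 200, 3.97 to 7.26 in the high fat 600 and 3.40 to 7.17 in the low fat 600 libraries, so all groups overlapped. In the 600 set it was the strongest noncoding-end peak, at rank 34 of 4455 in the high fat 600 replicate 1.

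LOC100737817 (chr14:61688093-61689690) and LOC100152407 (chr7:86123704-86125605) had peaks in 14 libraries each. The former lies 20930.5 bp (median over its peaks) from HNRNPF, which encodes an RNA-binding splicing regulator, and the latter 16716 bp from the chromatin remodeller gene CHD2. Strength at LOC100737817 ran from 3.61 to 7.07 in the 200 and from 3.50 to 6.16 in the 600 libraries. The site at LOC100152407 ran from 3.31 to 7.47 and from 3.86 to 5.54.

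Peaks in 13 libraries were found at 7 genes. LOC100511007 lies inside SLC25A42, the gene of a mitochondrial coenzyme A carrier, and LOC106505814 inside CD47, whose product restrains phagocytosis. LOC102164181 is in MGAT1, an enzyme of N-glycan synthesis. The others were LOC100525935, 1370 bp from the serine protease gene PRSS12, LOC106509808, 55397 bp from the cilium gene FAM161A, LOC110256691, 22949 bp from the zinc finger gene ZNF239, and LOC100515290, 5959 bp from the deubiquitinase-family gene USP53. With a 2500 bp window, which also asks for 2500 bp to every coding end, 7 of the 20 most recurrent genes lost all their peaks: LOC100511007, LOC106505814, LOC100525935, LOC102160325, LOC110255848, LOC110261640 and LOC102157581. With a 500 bp window LOC100511007 and LOC106510047 did. Median strength at the 7 genes with 13 libraries ran from 4.15 at LOC100515290 to 5.79 at LOC100511007.

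The remaining 9 of the 20 most recurrent genes had peaks in 10 to 12 libraries. LOC110262088 had 12, near the deubiquitinase gene USP46, and 7926 bp from its region lay that of LOC100626258, with 9. LOC102160325, near the mitochondrial ribosomal protein gene MRPS30, and LOC106509564, near H2AFY of the histone variant macroH2A, had 11 each. The 6 with 10 libraries were LOC106510047 near the nuclear receptor gene HNF4G, LOC110255848 near the small GTPase gene RAP2A, LOC110261640 near GTF2A1 of the general transcription factor TFIIA, LOC102157581 near NOTCH4, LOC102160096 near RPN1 of the oligosaccharyltransferase, and LOC110260737 near the cell cycle inhibitor gene CDKN1B. The region of LOC110255848 was listed in 17 libraries, in some of which the peak centre fell within 1000 bp of the RAP2A end.

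As a set these 20 all carried LOC identifiers. The centre was within 250 bp of the noncoding end at 14, inside a coding gene body at 7 and 1000 to 2000 bp from a coding end at 7. The number of libraries of 7 that listed them had a median of 3 in high fat 200, 4 in low fat 200, 2 in high fat 600 and 3 in low fat 600. Low fat 200 replicates 6 and 7, with 4208 and 6691 peaks, listed all 20, while the largest list, high fat 200 replicate 1 with 17652 peaks, listed 18. High fat 200 replicate 3, with 6288 peaks, listed 12. None of the 20 was listed by the low fat 200 replicate 2, the high fat 600 replicates 2, 4, 5 and 6 or the low fat 600 replicates 2 and 5, whose lists held 39 to 196 peaks.

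**Figure D4:**
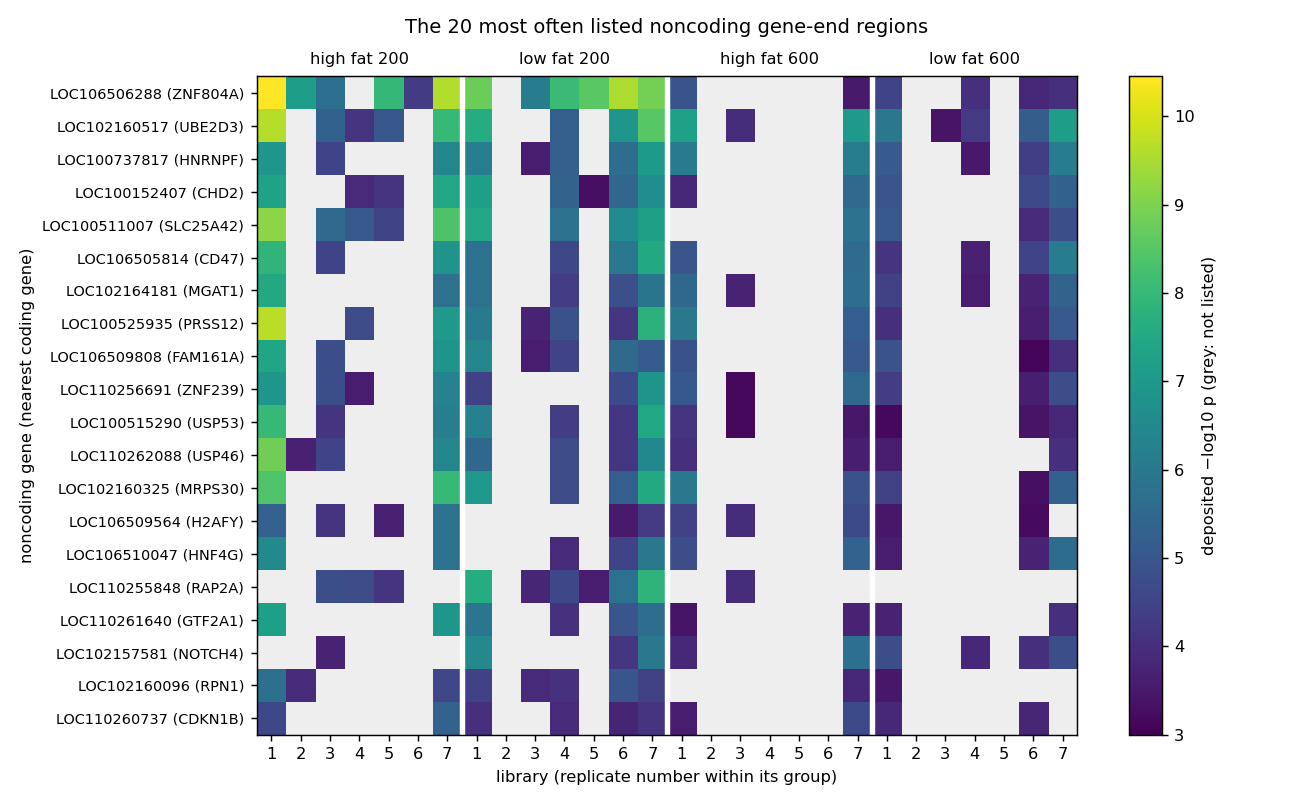
Strength (deposited −log10 p, colour) of the noncoding-end peak at the 20 most often listed noncoding genes (rows, nearest coding gene in brackets) in the 28 libraries (columns, by group and replicate), with grey where none was listed. LOC106506288 is filled in 12 of 14 libraries of the 200 set and strongest there, and whole columns are grey in the libraries with few peaks.

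The strongest peaks were largely at the same genes. In the 200 libraries LOC106506288 led with 10.5, at rank 19 of the 17652 peaks of the high fat 200 replicate 1. Then came LOC100525935 (9.67), LOC102160517 (9.62) and LOC106509507 (9.57), the last inside RGMB, a coreceptor gene of bone morphogenetic protein signalling. LOC100511007 reached 9.16, LOC110262088 8.83, LOC102160325 8.39, and both LOC100514506, beside the transcription factor gene NFIB, and LOC100515290 reached 7.98. LOC106505814 closed the first 10 with 7.89. All of these were in the high fat 200 replicate 1 except LOC100514506, which was in replicate 7.

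In the 600 libraries LOC102160517 (7.26) was followed by LOC110261980 (7.10), inside the mineralocorticoid receptor gene NR3C2 and 999 bp from the noncoding end, hence just within the rule. Next were LOC106505814 (6.17), LOC100737817 (6.16) and LOC110260067 (6.00), near FAM110C. LOC102160325 and LOC100525935 both reached 5.98. LOC102157952 (5.89) lies 26227 bp from SEPSECS, an enzyme of selenocysteine synthesis, LOC100621235 (5.87) is in the chromatin reader gene ING2, and LOC100511007 reached 5.84. For 5 of these 10 genes, LOC102160517, LOC106505814, LOC102160325, LOC100525935 and LOC100511007, a peak was also among the 10 strongest of the 200 set.

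Far from coding genes, 3 of the 509 regions lay beyond 500000 bp. LOC102164643 (chr11:58940897-58942680) lay 1140677 bp from SLITRK5, a neuronal transmembrane protein gene, and had peaks in 7 libraries: 2 high fat 200, 3 low fat 200, 1 high fat 600 and 1 low fat 600, with strengths from 3.36 to 5.36. The region of LOC102161862 lay 411558 bp from ID2, a transcriptional inhibitor gene, and was listed by 3 libraries of the 200 set. LOC110256530 lay 381487 bp from the collagen-modifying enzyme gene PLOD2 with 5 libraries, LOC106506245 211908 bp from HS6ST1 of heparan sulfate synthesis with 6, and LOC106504492 190461 bp from RGMA with 5. These were the 5 most remote regions with noncoding-end peaks in at least 3 libraries.

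Named long noncoding RNAs were hardly in reach of the gene table. Of 35 long noncoding RNA symbols looked up, MALAT1, NEAT1 and XIST among them, only MEG3, the imprinted transcript of the DLK1 locus, was in the table under that symbol, and it had no peak at either end. Of 24 miRNA symbols 14 were present with biotype miRNA, which the rule does not cover. MIR122, which encodes the abundant miRNA of hepatocytes, had an end peak in 1 library and the others in none. Of 5 symbols of small structural RNAs, RMRP among them, none was matched.

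The noncoding models with a symbol were a class apart by name. There are 56 without a LOC identifier among the 5399, and all but MEG3 bear the symbol of a gene that codes for protein in other mammals or as a pig entry elsewhere (SEM1 is listed as both). A peak met the rule at an end of 26 of the 56 (46.4%), against 465 of 5343 (8.70%) with a LOC identifier. With peaks that were also at a coding end included, 37 of the 56 (66.1%) had an end peak. TGOLN2, named for a protein of the trans-Golgi network, had peaks in 9 libraries, a median of 168 bp from its end, with strengths from 3.53 to 5.35. BORCS5, named for a lysosome-positioning protein, had them in 8, 142 bp from its end, with strengths from 3.41 to 5.92.

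Further genes of this kind, chosen after their values were seen, were the RNA-binding HNRNPU, the cohesin regulator PDS5A and TSSC4 with 6 libraries each, MARC2, the kinase POMK and the nucleoporin NUP58 with 5, the phosphatase MTMR6, the mitochondrial import chaperone TIMM10 and the deubiquitinase USP42 with 4, and the translation factor EIF4B with 3. Their peaks lay a median of 35 bp (NUP58) to 234.5 bp (USP42) from the end. The 6 libraries with PDS5A were all of the 200 set. With peaks assigned to the nearest gene, 24 of the 56 had a noncoding-end peak, 12 of them in at least 3 libraries, 11 had peaks that were also at a coding end and 21 had none.

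Beside each noncoding-end peak, the nearest coding gene was checked for an end peak in the same library. It had one for 437 of the 1393 peaks (31.4%). The share was 20.8% with the coding end at 1000 to 2000 bp, 30.6% at 2000 to 10000 bp, 36.1% at 10000 to 100000 bp and 30.1% beyond. In 16 of the 17 libraries with at least 5 noncoding-end peaks it exceeded the share of all coding genes that the library listed, with medians over libraries of 19.1% and 13.8%. Both shares move with the size of the list and gene density was not matched, so no test was made. The rule also removed peaks centred within 1000 bp of a coding end, which can affect the class at 1000 to 2000 bp. This effect was not tested.

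Against coding-end peaks of the same library, noncoding-end peaks of the 200 set were slightly weaker before correction. The library median of −log10 p was lower at noncoding ends in 7 and higher in 1 of the 10 lists of the 200 set that held 5 or more noncoding-end peaks, with means of 4.17 and 4.40. The medians were equal in high fat 200 replicates 4 (3.88) and 5 (3.93). Differences ran from -0.566, in the longest list, to 0.149, and a relation to list size was not tested. The mean difference was -0.23 ± 0.230 (SD, n = 10; exact sign-flip permutation, two-sided, p = 0.0234), which did not pass adjustment over 4 such tests (0.0938). In the 600 set it was -0.10 ± 0.171 (n = 7, exact p = 0.188). Median widths were 512 bp and 555 bp in the 200 set, a difference of -42.3 bp ± 74.8 (n = 10, exact permutation p = 0.113), and 1007 bp and 1052 bp in the 600 set, -44.9 bp ± 83.7 (n = 7, exact permutation p = 0.234). Neither difference exceeded its spread over libraries. In strength, peaks away from both kinds of end had the noncoding-end median in high fat 200 replicates 1 (4.32), 3 (3.74), 4 and 5. The same held in low fat 200 replicate 6 (4.18). Their median was lower than at noncoding ends in high fat 200 replicate 7 and low fat 200 replicates 1, 4 and 7. It was higher in low fat 200 replicate 3.

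High and low fat libraries were then compared. The share of noncoding-end among all peaks differed by 0.0468 percentage points between high and low fat in the 200 libraries (exact permutation, two-sided, p = 0.867) and by 0.0455 in the 600 libraries (exact permutation p = 0.918), less than the spread between libraries. Between label numbers, 600 minus 200, it differed by -0.126 (n = 14 each, permutation p = 0.655). The difference between the 2 fat differences, taken within same-numbered 600 and 200 libraries, was -0.00133 percentage points (permutation p = 0.998).

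Relative to gene-end peaks alone, the noncoding share was higher in the high fat 200 than in the low fat 200 libraries before correction. The high fat 200 values ran from 2.11% over a median of 3.83% to 9.52%, with a mean of 4.45% ± 2.40 (SD, n = 7), against 2.09% ± 1.15 (n = 7) in low fat 200. The groups overlapped, and the difference of 2.37 percentage points (exact permutation, two-sided, p = 0.0117) did not pass adjustment over 12 comparisons (adjusted p = 0.140). Without high fat 200 replicate 6 (9.52%) it was 1.52 (exact permutation p = 0.0239). With the 9 libraries of at least 1000 peaks it was 0.809 (exact permutation p = 0.214), with a 2500 bp window 1.29, and with the middle 90% of widths 0.920. Beside this, the coding-end share of all peaks ran from 9.27% to 47.5% (median 37.2%) in high fat 200 and from 5.10% to 70.0% (median 55.1%) in low fat 200 libraries. Its part in the result was not tested.

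In the 600 set the same share was 8.86% ± 18.2 in high fat and 1.64% ± 1.19 in low fat libraries (n = 7 each, exact permutation p = 0.371). The high fat mean rested on replicate 6, where 1 of 2 gene-end peaks was at a noncoding end (50%), and without it the difference was 0.368 percentage points (exact permutation p = 0.677). The 600 and 200 libraries gave 5.25% ± 13.0 and 3.27% ± 2.19 (n = 14 each, permutation p = 0.977). Without high fat 600 replicate 6 the 600 libraries were lower by 1.46 percentage points (a difference of -1.46, permutation p = 0.0488, unadjusted). Taken within same-numbered libraries, the fat difference of the 600 set exceeded that of the 200 set by 4.86 percentage points, which did not pass (permutation p = 0.960).

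**Figure D5:**
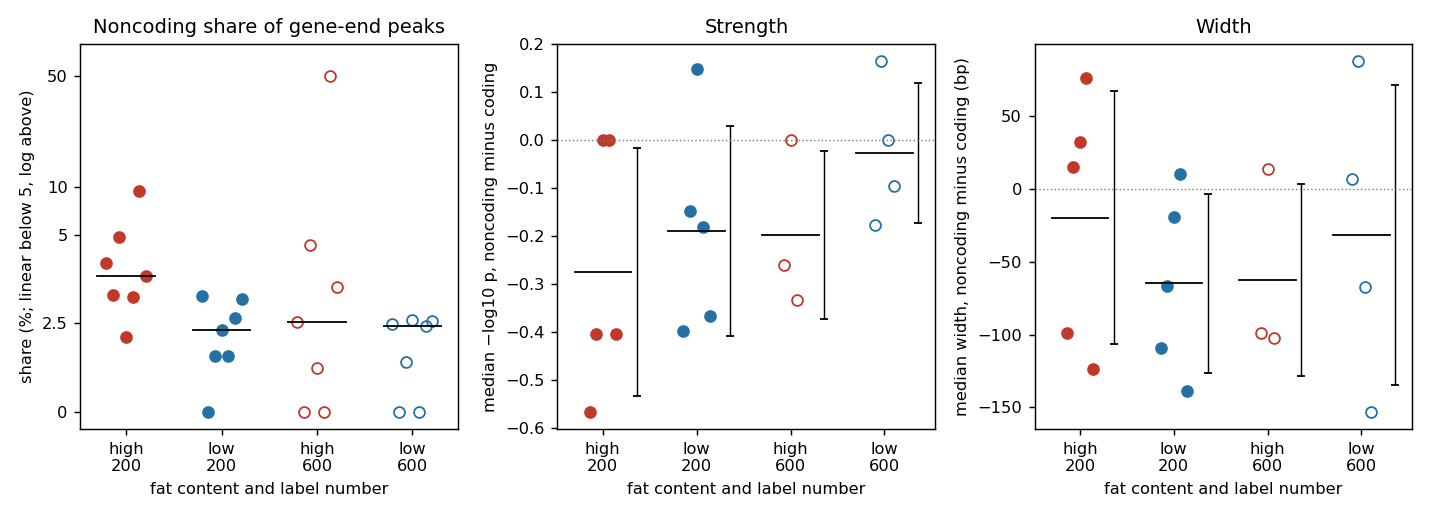
Per-library values by fat content and label number: noncoding-end peaks as percent of gene-end peaks (left, axis linear below 5 and logarithmic above, line at the median of 7 libraries), and median −log10 p (middle) and median width in bp (right) at noncoding minus coding ends, with the mean (line) and SD (bar) over libraries with at least 5 noncoding-end peaks. One high fat 600 library at 50% stands apart on the left, and most strength differences lie at or below 0.

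With libraries taken as unpaired, the other library measures gave no difference past the threshold between fat groups or label numbers. High minus low fat was -0.09 in strength relative to coding ends in the 200 libraries (n = 5 and 5, exact permutation p = 0.524) and -0.17 in the 600 libraries (n = 3 and 4, exact permutation p = 0.229). In width it was 44.9 bp (exact permutation p = 0.341) and -31.2 bp (exact permutation p = 0.686). Between label numbers, 600 minus 200, strength differed by 0.13 (n = 7 and 10, permutation p = 0.219; within the 7 same-numbered pairs 0.21, exact sign-flip p = 0.0156, unadjusted) and width by -2.61 bp (n = 7 and 10, permutation p = 0.947). Adjusted over the 12 comparisons, these p-values lay between 0.890 and 0.977.

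Region by region, fat content was compared by the number of libraries with any peak in the region, using Fisher's exact test, two-sided, with Benjamini-Hochberg adjustment over all regions listed in at least 3 of the libraries compared. In the 200 libraries 160 noncoding-end regions were tested and 0 passed an adjusted p of 0.05, where 0% of all 7465 regions did. With 7 against 7 libraries the smallest possible Fisher's exact p is 0.000583. A region alone at that p could not pass adjustment over 7465 regions, nor over the 3404 of the 600 libraries. The lack of calls therefore cannot show that the fat groups did not differ. At an unadjusted p under 0.05 the count was also 0 of 160, against 0.0134% of all regions. More high fat libraries listed 57 of the 160 (35.6%; 30.9% of all regions), and more low fat libraries listed 65 (40.6%; 40.6% of all). A single region was listed only by high fat libraries (1 of 160; 1.41% of all) and another only by low fat libraries (1 of 160; 0.174% of all). They had the smallest p, 0.192, at LOC110262038 with 3 of 7 high and 0 of 7 low fat libraries and at LOC110261114 with 0 and 3, by Fisher's exact test.

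Next in order were, towards high fat, LOC110256390 and LOC110261013 (3 and 1 libraries) LOC106509564 (4 and 2) and LOC102158467 (2 and 1), and towards low fat USP42 (1 and 3), LOC102158334, LOC102158458 (2 and 4 each) and LOC102160096 (3 and 5). In the 600 libraries 65 regions were tested and 0 passed, adjusted or not, with 0% of 3404 regions called in all. More high fat libraries listed 17 (26.2%; 27.1% of all) and more low fat libraries 25 (38.5%; 39.2% of all). Neither fat group alone held any of the 65 (0.206% and 0.0881% of all regions were listed only by high and only by low fat libraries). The region of LOC110261980 in NR3C2 had the smallest p, 0.103 by Fisher's exact test, with 2 of 7 high and 6 of 7 low fat libraries. That region was listed in 20 of the 28 libraries, in 3 of which the peak met the rule. It was followed by LOC106505814, LOC100737817, LOC106506288 and LOC100511007, each with 2 high and 4 low fat libraries. Other regions had the same p as these, LOC102160517 (3 and 5) among them. Towards high fat stood LOC102162764, LOC106505158, LOC106505743, LOC106506245 and LOC110257167, each with 2 and 1 libraries and an exact p of 1. In both sets the shares by direction were near those of all regions.

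Between label numbers, 190 noncoding-end regions were tested over 14 against 14 libraries and 0 passed the adjusted threshold, where 0.489% of all 8592 regions did (0.477% listed by more 200 and 0.0116% by more 600 libraries). At an unadjusted p under 0.05 there were 10 (5.26%), against 4.5% of all regions. All 10 were listed by more 200 libraries, as were 4.47% of all regions, with 0.0349% the other way. Of the 190, 161 (84.7%; 83.5% of all) were listed by more 200 libraries and 42 (22.1%; 21.7% of all) only by them. More 600 libraries listed 13 (6.84%; 6.63% of all), and 0 were listed only by them (0.151% of all).

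The smallest p, 0.00442 by Fisher's exact test (adjusted 0.559), was at the region of LOC102167252, with 1 library of the 600 and 9 of the 200 set, in only 1 of which the peak itself met the rule. LOC102158458, PDS5A and LOC102161634 were listed by 0 of 14 and 6 of 14 libraries (Fisher's exact p = 0.0159, adjusted 0.772), and LOC106509575 by 1 and 7 (Fisher's exact p = 0.0329). Towards 600 the most unequal was LOC106508319, with 4 and 1 libraries (Fisher's exact p = 0.326). Then came LOC102162764 (3 and 1), LOC106508822 (4 and 2), LOC106505124 (5 and 4) and LOC106507157 (4 and 3).

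One call depended on how peaks were joined. When peaks had to overlap by 50% of both widths, the narrow 200 peaks and the wider 600 peaks at LOC106506288 no longer formed 1 region, and the 200 region (chr15:90309749-90310099) stood at 0 of 14 against 12 of 14 libraries (Fisher's exact p = 5.98e-06, adjusted 0.00104). It was the 1 call among 176 noncoding-end regions, where 102 of all 8511 regions (1.2%) were called under that joining. With joining by 1 bp the site was listed in 6 of 14 and 12 of 14 libraries.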

How the data were processed

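The deposited table holds one peak list per library, made by the authors. Tools named in the submitters' processing notes are BWA, SAMtools, Picard, FastQC and the peak caller Genrich, with build Sscrofa11.1. Their versions are not given in the sources used here. Per the file headers its columns are position, score, signal value, p-value and summit. The deposited score equalled 1000 times signal divided by width, capped at 1000, in 99.999% of peaks, and was not used further. The deposited signal is the area of a peak and was never negative. The deposited p-value column is −log10 p, since it ranged from 2.83 to 7880.9. Peak names skip numbers, so peaks had been removed before deposit by a rule not given in the sources used here: at most 3.04% to 52.9% of a library's numbered peaks were listed. A region missing from a list may thus be closed, poorly covered or filtered out. Read counts are not in the table used here, so no counting intervals are given.

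Starts were moved from 0-based to 1-based. Peaks were placed against the RefSeq gene table of Sscrofa11.1, and protein-coding ends served as the comparison. Library shares and medians (libraries with at least 5 noncoding-end peaks) were compared by exact permutation, exact sign-flip or 100000 resamples, regions by Fisher's exact test with Benjamini-Hochberg adjustment over all regions in at least 3 libraries, threshold 0.05. With 7 against 7 libraries the smallest Fisher's exact p is 0.000583. The genes named were the 20 found in most libraries, the 10 strongest per label number, symbols other than LOC in at least 8 libraries, the marker and RNA lists, the 5 smallest p per comparison and direction, and the 5 most remote regions. Many regions were tied in p, so which of the tied ones were named carries no meaning. Members, lists and rules were chosen with earlier results of these data known. Same-numbered libraries were checked for pairing. Between label numbers, 9 of 14 pairs correlated above 0.1 in their deviations over 8592 regions, and the lowest correlation was 0.0354. Because not all passed 0.1, the main comparisons took libraries as unpaired, a choice that does not exclude a pairing. Their p-values between label numbers thus assume independent libraries, which was not shown. The difference between fat differences was the exception and used 600 minus 200 differences of same-numbered libraries. Alternatives were other windows (500 and 2500 bp), summits, any overlap, coding ends over 5000 bp away, the stronger peaks, the middle 90% of widths, lists of at least 1000 peaks, reciprocal overlap of 50%, a replicate block and leaving out each library. The statistics were tested on simulated data. Promoter sequences were not used here, and the value of one marker gene is not reported here. Python 3.11.15, pandas 2.3.3 and scipy 1.17.1 were used.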

Additional observations from a re-analysis of the deposited data

Results flagged for a closer look

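In each group of 4 to 10 libraries, the most extreme value of every library measure was checked for a gap to the others beyond Dixon's 95% critical value, and 2 of 14 groups held one. Chance alone would mark about 1 group in 20. Both concern noncoding-end peaks as a share of gene-end peaks. The high fat 200 replicate 6 stood at 9.52%, from 205 listed peaks of which 2 were at noncoding and 19 at coding ends, while the other 6 libraries of its group lay between 2.11% and 4.94%. One of its 2 noncoding-end peaks was that at LOC106506288. The high fat 600 replicate 6 stood at 50%, from 39 listed peaks with 1 at a noncoding and 1 at a coding end, while the others lay between 0% and 4.73%.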

How the results depend on the processing

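Stability was judged on unadjusted p-values, and the cause of a change was not tested. The high against low fat share of gene-end peaks in the 200 libraries kept its sign in every setting, and it was no longer under 0.05 with a 2500 bp window (1.29), the middle 90% of widths (0.920) or lists of at least 1000 peaks (0.809). Leaving out each library gave 1.52 to 2.76. The lowest was without high fat 200 replicate 6. Peaks above the median strength of their label number gave a larger difference, 11.5 percentage points (exact permutation p = 0.0035, unadjusted). Other differences between groups, none under 0.05 as reported, changed sign or passed in some settings.

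For the share of all peaks, high against low fat, the 200 set gave -0.172 (500 bp window), -0.0802 (middle widths) and -0.346 (at least 1000 peaks), and -0.157 to 0.155 without single libraries. The 600 set gave -0.321 (500 bp), -0.00106 (summits) and -0.0539 (at least 1000 peaks), and -0.192 to 0.236 without single libraries. Between labels it was 0.0296 (middle widths) and 0.114 (at least 1000 peaks). For the share of gene-end peaks, high against low fat in the 600 set was -0.622 (2500 bp). Between labels that share was -1.24 (500 bp, permutation p = 0.0382), -5.94 (peaks above the median strength), -0.261 (at least 1000 peaks) and -1.46 to 2.46 without single libraries, the lowest without high fat 600 replicate 6 (permutation p = 0.0488). The difference between fat differences was -0.913 (500 bp) and -1.92 (2500 bp), settings chosen after seeing the data.

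Strength relative to coding ends, high against low fat in the 200 set, was 0.13 (500 bp), and between labels -0.0592 (2500 bp) and -0.0200 (any overlap). Width, high against low fat in the 600 set, was 14.4 bp (coding ends over 5000 bp away), 22.8 bp (stronger peaks), 8.5 bp (at least 1000 peaks) and -71.7 to 8.5 bp without single libraries. Between labels it was 25.7 bp (500 bp), 3.56 bp (summits), 53.7 bp (stronger peaks) and -24.7 to 15.4 bp without single libraries. Noncoding against coding strength was -0.16 (500 bp) and -0.15 (regions in at least 3 libraries) in the 200 set, no longer under 0.05, and -0.23 (2500 bp) in the 600 set, now under it. Width against coding ends was -62.5 bp (2500 bp, 200 set, under 0.05) and 6.64 bp (500 bp, 600 set).

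Same-numbered libraries correlated in their deviations from -0.172 to 0.287 between fat groups of the 200 set, -0.164 to 0.639 in the 600 set and 0.0354 to 0.626 between labels, where 6 of 14 correlated best with their own number. With the number as a replicate block, strength between labels was 0.21 (exact p = 0.0156) and width 21.5 bp, and 0 regions of any kind were called between labels, against 42 unblocked and 102 with reciprocal overlap. That overlap called 1 noncoding-end region, LOC106506288. No setting called a noncoding-end region between fat groups. The percent of noncoding genes with an end peak was 7.13 (500 bp), 12.4 (2500 bp), 3.15 (at least 3 libraries) and 46.4 (symbols other than LOC). For 53 named genes, the number of libraries moved by over 1.5 times or to 0 in 15 (500 bp), 16 (2500 bp), 7 (summits) and 26 (stronger peaks), settings chosen after seeing the data. Apart from these genes, and with the changes above included, 390 results under other settings were unchanged and 45 changed sign. Unchanged means the same direction and side of the threshold or, for regions, 0 called again. The unchanged results include some that could hardly change. A setting with lncRNA genes only repeats the main values, since every noncoding gene used is of that biotype. Between fat groups, a region alone at the smallest possible p could not pass adjustment. The count is therefore not a measure of stability. The unknown depth and the 13 lists under 1000 peaks limit what absence from a list can show.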
